A study of Mus musculus with 6 samples.

Results

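The 10 genes described here encode the cytosolic HSP70 and HSP90 chaperones and their closest helpers: Hspa1a, Hspa1b and Hspa8 of the HSP70 family, the HSP110 exchange factors Hspa4 and Hsph1, the co-chaperone Bag3, the J-domain proteins Dnaja1 and Dnajb1, and the HSP90 genes Hsp90aa1 and Hsp90ab1. They were chosen by name, and all 10 were found among the 23282 rows of the deposited count tables and among the 11700 genes that passed the filter on low counts. RNA was sequenced from gastrocnemius muscle of 6 male wild-type C57/BL6J mice aged 20 months. The 3 inotodiol mice were given inotodiol, a triterpenoid of the chaga mushroom, by mouth each day at 0.35 mg/kg for 10 weeks. The 3 vehicle mice received 40% polyethylene glycol, 5% Tween 80 and 0.9% saline. The series title concerns muscle wasting with age, mitochondria and liver X receptor beta, and the question here is whether transcripts of the protein folding system differ in treated old muscle. No younger mice are among the samples analysed here.

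HSP70 proteins bind exposed hydrophobic stretches of unfolded clients in cycles of ATP binding and hydrolysis. J-domain proteins deliver clients and stimulate hydrolysis, and exchange factors of the HSP110 and BAG families release the nucleotide so that the client can leave. HSP90 acts later, on nearly folded clients such as kinases and steroid receptors. When unfolded protein accumulates, the heat shock factor HSF1 binds heat shock elements, which are repeats of the letters GAA in alternating orientation, and raises transcription of the inducible members. In skeletal muscle this system serves myosin and filament proteins that are damaged by contraction.

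Promoter windows are printed because the inducible pair Hspa1a and Hspa1b cannot be judged without seeing how alike the copies are, and because heat shock elements are what the inducible members are known to share. The windows come from RefSeq on GRCm38.p6 and run from 250 bases before the annotated start to 50 bases after it, so the first transcribed base is position 251. Of the 10 genes, 7 had such a window (11 windows over all their starts). Capitals mark the paired half-elements GAANNTTC or TTCNNGAA, each of which reads the same on both strands. The first annotated window is shown for the 5 genes that hold a pair, and Hspa4 is shown as a member whose window holds none.
Hspa1a, chr17:34972107-34972406, minus strand: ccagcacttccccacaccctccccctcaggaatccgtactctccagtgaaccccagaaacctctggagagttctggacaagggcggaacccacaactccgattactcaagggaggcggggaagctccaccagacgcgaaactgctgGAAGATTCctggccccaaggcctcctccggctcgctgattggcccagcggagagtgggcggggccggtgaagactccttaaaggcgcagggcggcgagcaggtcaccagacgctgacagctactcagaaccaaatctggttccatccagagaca
Hspa1b, chr17:34959189-34959488, minus strand: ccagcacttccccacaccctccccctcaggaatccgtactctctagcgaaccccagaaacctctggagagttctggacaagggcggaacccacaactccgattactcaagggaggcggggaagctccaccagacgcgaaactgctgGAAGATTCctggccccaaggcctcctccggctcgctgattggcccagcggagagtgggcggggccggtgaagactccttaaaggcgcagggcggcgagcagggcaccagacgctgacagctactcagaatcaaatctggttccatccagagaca
Hsph1, chr5:149636266-149636565, minus strand: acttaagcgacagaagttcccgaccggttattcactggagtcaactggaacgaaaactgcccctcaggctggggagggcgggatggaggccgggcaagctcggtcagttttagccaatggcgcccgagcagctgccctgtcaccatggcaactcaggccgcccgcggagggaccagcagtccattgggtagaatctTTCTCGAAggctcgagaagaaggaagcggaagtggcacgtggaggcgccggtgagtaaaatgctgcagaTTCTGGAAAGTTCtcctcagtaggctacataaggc
Dnaja1, chr4:40722218-40722517, plus strand: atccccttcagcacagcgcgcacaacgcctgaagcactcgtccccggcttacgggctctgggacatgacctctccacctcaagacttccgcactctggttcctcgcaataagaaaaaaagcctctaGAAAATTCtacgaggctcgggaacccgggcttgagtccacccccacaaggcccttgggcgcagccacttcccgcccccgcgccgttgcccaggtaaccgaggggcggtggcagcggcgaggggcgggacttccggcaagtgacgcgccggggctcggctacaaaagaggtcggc
Bag3, chr7:128523333-128523632, plus strand: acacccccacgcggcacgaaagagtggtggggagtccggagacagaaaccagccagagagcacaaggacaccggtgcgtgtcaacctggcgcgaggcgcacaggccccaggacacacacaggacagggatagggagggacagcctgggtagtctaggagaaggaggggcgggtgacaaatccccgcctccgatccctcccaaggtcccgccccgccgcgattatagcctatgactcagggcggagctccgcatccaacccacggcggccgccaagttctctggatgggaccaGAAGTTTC
Hspa4, chr11:53300430-53300729, minus strand: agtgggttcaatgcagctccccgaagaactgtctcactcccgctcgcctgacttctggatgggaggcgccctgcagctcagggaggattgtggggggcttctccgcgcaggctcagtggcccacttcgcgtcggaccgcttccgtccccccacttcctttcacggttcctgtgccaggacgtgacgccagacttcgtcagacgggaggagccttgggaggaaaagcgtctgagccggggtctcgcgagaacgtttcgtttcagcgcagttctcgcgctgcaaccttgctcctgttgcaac

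The windows of Hspa1a and Hspa1b were identical at 296 of 300 positions (98.7%). Counting from the first printed base, with the Hspa1a base first and the Hspa1b base last, they differed by C44T, T47C, T249G and C276T. Both held the pair GAAGATTC at positions 147 to 154, which is 104 to 97 bases before the start, and none of the 4 differences lies in it. The pair GAANNTTC was found in 5 of the 7 genes (6 of 11 windows) and in 7.86% of the 32817 distinct promoter windows of the table. Dnaja1 held its GAANNTTC pair only in the window shown. TTCNNGAA was found in 1 of the 7 genes, Hsph1 (2 of 11 windows), and in 8.51% of all windows. Hsph1 also held a triplet, TTCTGGAAAGTTC, at positions 266 to 278 of the window shown, just after the start, where a pair of each kind overlap. A triplet, in which both kinds of pair share their middle half-element, read on either strand, occurred in 0.603% of all windows. The windows of Dnajb1 and Hspa4 held neither pair, which says only that these letters are not in those windows. The CCAAT box, searched as CCAAT on both strands, was in 5 of the 7 genes (7 of 11 windows) and in 37.4% of all windows. TATAAA, on both strands, was in 0 of the 7 genes (0 of 11 windows) and in 13.6% of all windows. The windows of Hsph1 overlap, and those of Hspa1a and Hspa1b are near copies, so the windows are not independent counts. The members were named as chaperones of the heat shock response, so these counts describe them and are not evidence about their control in these mice.

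No difference between inotodiol and vehicle muscle was detected in any of the 10 chaperone transcripts. By edgeR's quasi-likelihood test, 0 of 10 had an adjusted p under 0.05, against 0% of all 11700 genes, and at an unadjusted p under 0.05 also 0 of 10, against 4.87% of all genes. DESeq2 and limma-voom called 0 of the 10 as well. The log2 fold changes of inotodiol over vehicle ran from -0.22 to 0.25, 5 above 0 and 5 below, with a median of 0.0094 beside a median of -0.00073 over all genes tested. In 0 of the 10 genes did the 3 inotodiol values all lie on the same side of the 3 vehicle values, whereas this was so for 10.4% of all genes. The smallest unadjusted p among the members was 0.17 (Hsp90aa1, adjusted p 0.96 in edgeR). With 3 mice a group, each p-value sets a fold change against the spread among these mice alone, moderated over all genes tested. A p that misses the threshold does not show that levels were equal, so the 95% intervals are given for each gene.

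**Figure D1:**
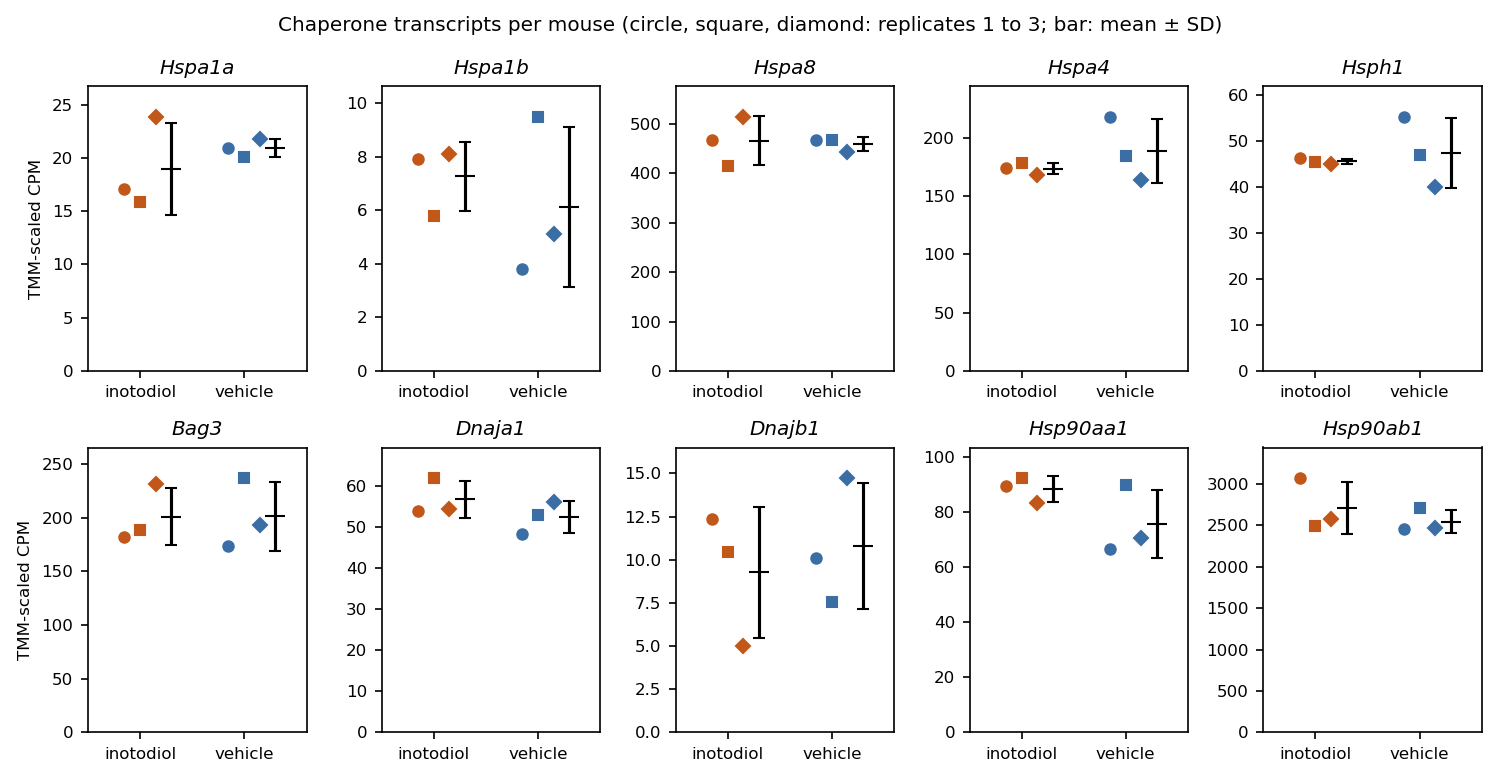
CPM (read counts per 1000000 library counts after TMM scaling, vertical axis from 0, a scale for each panel) of the 10 chaperone genes, with inotodiol at left and vehicle at right in each panel. Each point is 1 mouse and the bar beside it is the mean ± SD of 3 mice. In every panel the points of the groups overlap, as in Hspa8, with means of 466 and 459 CPM.

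Libraries held 8961893 to 9953764 counts. The 12 skeletal muscle fibre markers, among them Acta1, Ckm and Myh4, were all detected and together took 162571 to 174602 unscaled CPM (shares of the library total, with no TMM factor) in inotodiol and 165662 to 180613 in vehicle libraries. Other material varied beside them: the 14 hepatocyte markers in the tables took 123 to 718 unscaled CPM in inotodiol and 43.3 to 104 in vehicle libraries, with none at 0 in all libraries. Of the 13 hepatocyte markers tested, 0 were called and 13 had log2 fold changes above 0, with a median of 2.76. In edgeR 12 of them were under 0.05 unadjusted (92.3%, against 4.87% of all genes). The 7 Schwann cell and 6 erythroid markers also all had log2 fold changes above 0, against 49.9% of all genes tested, with medians of 0.55 and 0.56. Of these, 3 of the 7 (42.9%) and 1 of the 6 (16.7%) were under 0.05 unadjusted in edgeR, and 0 were called. The 10 macrophage markers took 63.4 to 185 and 111 to 289 unscaled CPM in inotodiol and vehicle libraries. Their log2 fold changes were above 0 in 3 and below 0 in 7, with a median of -0.48. Of the 10, 0 were called and 1 (10%) was under 0.05 unadjusted in edgeR. The part of these markers in the chaperone values was not tested. In whole muscle a difference in material of a cell type and a difference in RNA per cell cannot be told apart. The precursor ribosomal RNA Rn45s took 4.33% to 10.2% of counts in inotodiol and 3.97% to 6.82% in vehicle libraries.

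The stress-inducible HSP70 genes stood low. Hspa1a (chromosome 17, 34969190 to 34972156, minus strand, GRCm38) encodes the main heat-inducible HSP70 together with its copy. It had 17.0, 15.9 and 23.9 CPM in inotodiol mice 1 to 3 and 21.0, 20.1 and 21.8 CPM in vehicle mice 1 to 3. The vehicle mice lay close together, inside the wider range of the inotodiol mice. The means were 18.9 ± 4.33 and 20.9 ± 0.861 CPM (SD, n = 3 each), a log2 fold change of -0.15 ± 0.22 (SE, 95% interval -0.61 to 0.32).

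Hspa1b (chromosome 17, 34956436 to 34959238, minus strand) had 7.92, 5.77 and 8.10 CPM in inotodiol mice and 3.79, 9.50 and 5.11 CPM in vehicle mice. The highest and the lowest of its 6 values were both from vehicle mice, 2.51-fold apart. Its log2 fold change was 0.25 ± 0.38 (95% interval -0.58 to 1.07), the widest interval of the 10 genes. This value hung on single vehicle mice, at 0.71 without vehicle replicate 2 and -0.0055 without vehicle replicate 1.

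The copies are alike beyond their promoters. Of the 50-base stretches of the annotated Hspa1a transcript, 58.8% were also present in Hspa1b, and 62.3% of those of Hspa1b were present in Hspa1a. How the authors' counting treated reads that match both is not given in the sources used here, so the level of each copy alone is uncertain. Hspa1a is also overlapped on the opposite strand, over 2225 bases, by the gene model Gm20481. Hspa1a took 68.3%, 73.3% and 74.7% of the counts of both copies in inotodiol libraries 1 to 3 and 84.7%, 67.9% and 81.0% in vehicle libraries 1 to 3. The lowest and the highest of these shares were both from vehicle mice, with exact 95% binomial intervals of 62.0% to 73.4% in vehicle 2 and 79.4% to 89.0% in vehicle 1, which cover counting error only and not the spread between mice. Summed, the copies had 25.0, 21.6 and 32.0 CPM in inotodiol and 24.8, 29.6 and 26.9 CPM in vehicle mice, and tested as 1 row in edgeR they had a log2 fold change of -0.048. The opposite signs of Hspa1a and Hspa1b thus met near 0 in the sum.

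**Figure D2:**
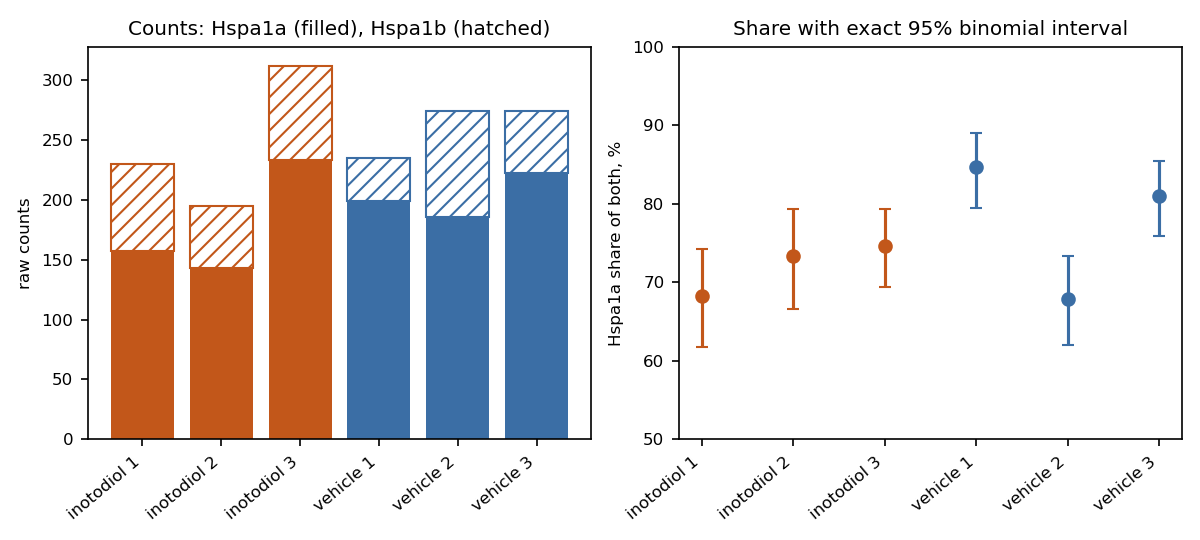
Left, raw counts (vertical axis) of Hspa1a (filled) and Hspa1b (hatched) stacked for each library; right, the share of Hspa1a in the counts of both, in percent, with its exact 95% binomial interval. Inotodiol libraries stand left of vehicle libraries, and the share is highest in vehicle 1 (84.7%) and lowest in vehicle 2 (67.9%).

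Hspa8 (chromosome 9, 40800984 to 40810087, plus strand), which encodes the constitutive HSC70 that folds new proteins and delivers clients to autophagy, varied little. It had 467, 416 and 515 CPM in inotodiol mice and 468, 467 and 443 CPM in vehicle mice. The inotodiol mice held both the lowest and the highest value. The log2 fold change was 0.021 ± 0.12 (95% interval -0.24 to 0.28), which as a fold is 1.01 with bounds of 0.846 and 1.22. It was -0.058 without inotodiol replicate 3 and -0.0040 without vehicle replicate 3. Of the 50-base stretches of its transcripts, 39.4% were shared with transcripts of other genes, most of them with the gene model Gm15459.

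The exchange factors of HSP70 did not part the groups either. Hspa4 (chromosome 11, 53259814 to 53300457, minus strand), an HSP110 protein that acts as exchange factor for HSP70, had 174, 178 and 168 CPM in inotodiol mice and 218, 184 and 164 CPM in vehicle mice. Vehicle 1 lay above the other 5 mice and vehicle 3 below them. The log2 fold change was -0.12 ± 0.14 (95% interval -0.42 to 0.18), and -0.0035 without vehicle replicate 1. None of its 50-base stretches was shared with another gene.

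Hsph1 (chromosome 5, 149614287 to 149636376, minus strand), the heat-inducible HSP110 known as HSP105, had 46.2, 45.4 and 45.0 CPM in inotodiol mice and 55.3, 47.0 and 40.0 CPM in vehicle mice. The vehicle mice again enclosed the inotodiol mice, with vehicle 1 highest and vehicle 3 lowest, as in Hspa4. The means were 45.5 ± 0.631 and 47.4 ± 7.67 CPM (SD, n = 3 each), and the log2 fold change was -0.058 ± 0.17 (95% interval -0.42 to 0.30). It was 0.067 without vehicle replicate 1.

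Bag3 (chromosome 7, 128523616 to 128546981, plus strand) links HSP70 to small heat shock proteins and, in muscle, leads worn filament proteins such as filamin C to chaperone-assisted autophagy at the Z-disc. It had 182, 189 and 232 CPM in inotodiol mice and 174, 237 and 193 CPM in vehicle mice. The means were nearly equal, 201 ± 26.8 and 201 ± 32.3 CPM (SD, n = 3 each). The log2 fold change was -0.0025 ± 0.15 (95% interval -0.33 to 0.32) and took either sign when single libraries were left out, from -0.12 without inotodiol replicate 3 to 0.14 without vehicle replicate 2.

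The J-domain genes differed in how much they varied. Dnaja1 (chromosome 4, 40722150 to 40737149, plus strand), a farnesylated partner of HSC70, had 53.9, 62.0 and 54.5 CPM in inotodiol mice and 48.4, 53.1 and 56.2 CPM in vehicle mice. The log2 fold change was 0.11 ± 0.15 (95% interval -0.22 to 0.44). Its last 608 bases overlap Smu1 on the opposite strand, which had 428 to 527 counts per inotodiol library and 439 to 520 per vehicle library, and whether the counting used strand is not given in the sources used here.

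Dnajb1 (chromosome 8, 83608193 to 83612653, plus strand), the heat-inducible HSP40 that works with HSP70 in pulling aggregates apart, had 12.4, 10.4 and 5.02 CPM in inotodiol mice and 10.1, 7.56 and 14.7 CPM in vehicle mice. Inotodiol 3 was the lowest of the 6 and vehicle 3 the highest, 2.93-fold apart, the widest spread among the 10 genes. The log2 fold change was -0.22 ± 0.36 (95% interval -1.00 to 0.55). It was 0.075 without inotodiol replicate 3 and 0.068 without vehicle replicate 3, so its sign rested on these libraries.

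Both HSP90 genes had log2 fold changes above 0 with intervals that include 0. Hsp90aa1 (chromosome 12, 110690605 to 110702728, minus strand), which encodes the inducible HSP90 alpha, needed in zebrafish muscle for the folding of myosin, had 89.3, 92.3 and 83.1 CPM in inotodiol mice and 66.6, 89.8 and 70.4 CPM in vehicle mice. Only vehicle 2 reached into the inotodiol range. The means were 88.2 ± 4.69 and 75.6 ± 12.5 CPM (SD, n = 3 each), and the log2 fold change was 0.22 ± 0.16 (95% interval -0.11 to 0.56). Without vehicle replicate 2 it was 0.37 with an unadjusted p of 0.044 and an adjusted p of 0.97 in edgeR, the single case under 0.05 for a member when a library was left out. Of its 50-base stretches, 47.5% were shared with transcripts of other genes, most with the gene model Gm12346, none of which is a row of the tables.

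Hsp90ab1 (chromosome 17, 45567775 to 45573271, minus strand), the constitutive HSP90 beta, was the most abundant member. It had 3072, 2491 and 2572 CPM in inotodiol mice and 2457, 2707 and 2473 CPM in vehicle mice. Inotodiol 1 stood above the rest, and without it the log2 fold change of 0.091 ± 0.12 (95% interval -0.16 to 0.34) was -0.0073. The interval as a fold ran from 0.896 to 1.27 around 1.07, the narrowest of the 10 genes. Its transcripts shared 3.44% of their 50-base stretches with other genes.

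**Figure D3:**
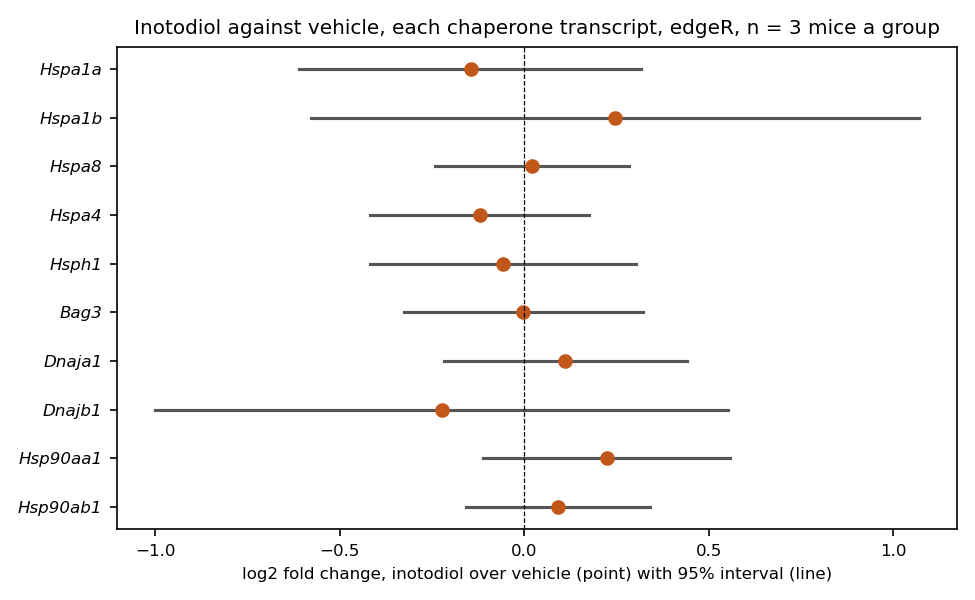
Log2 fold change of inotodiol over vehicle (horizontal axis, points) with its 95% interval (lines) for each of the 10 genes, from edgeR with 3 mice a group. Every interval includes 0, and the widest belong to the low genes Hspa1b (-0.58 to 1.07) and Dnajb1 (-1.00 to 0.55).

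The standard errors of the 10 log2 fold changes ran from 0.12 to 0.38 with a median of 0.15, beside a median of 0.28 over all genes tested. The 3 members with the lowest CPM, Hspa1b (0.38), Dnajb1 (0.36) and Hspa1a (0.22), had the largest standard errors. As folds, the 95% interval of Dnajb1 ran from 0.500 to 1.47, that of Hspa1b from 0.670 to 2.10 and that of Hspa1a from 0.656 to 1.25. For the other 7 genes no interval reached below 0.748 or above 1.47.

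The members differed far more from each other than between groups. Levels were set side by side as CPM per kb of annotated exon (GENCODE M21), with the reservation that it was not settled whether counts from this library kit rise with transcript length. Averaged over all 6 mice, Hsp90ab1 stood at 877 CPM per kb, Hspa8 at 108, Bag3 at 78.5, Hspa4 at 32.8 and Hsp90aa1 at 20.8. On this scale each of these was above the next in 6 of 6 libraries with ranges that did not meet. Below them Hspa1a (6.72 CPM per kb), Hsph1 (6.40) and Dnaja1 (6.34) could not be ordered on this scale, since their ranges overlapped and each was above the next in 3 of 6 libraries. The length pools the exons of all annotated transcripts of a gene, 2967 bases for Hspa1a, 7266 for Hsph1 and 8629 for Dnaja1. Dnajb1 (3.13 CPM per kb) and Hspa1b (2.39) came last, and their ranges overlapped too.

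Part of this order depends on the division by length. In CPM alone, Hsp90ab1 (mean 2629 CPM) and Hspa8 (462 CPM) were again first, and Hspa1b (6.70 CPM) was again last, with a range that overlapped that of Dnajb1 (10.0 CPM). Bag3 (201 CPM) and Hspa4 (181 CPM) then overlapped, with Bag3 above in 5 of 6 libraries. Dnaja1 (54.7 CPM) and Hsph1 (46.5 CPM) overlapped as well, but Hspa1a (19.9 CPM) lay below both, with a range of 15.9 to 23.9 CPM against 40.0 to 55.3 CPM for Hsph1.

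**Figure D4:**
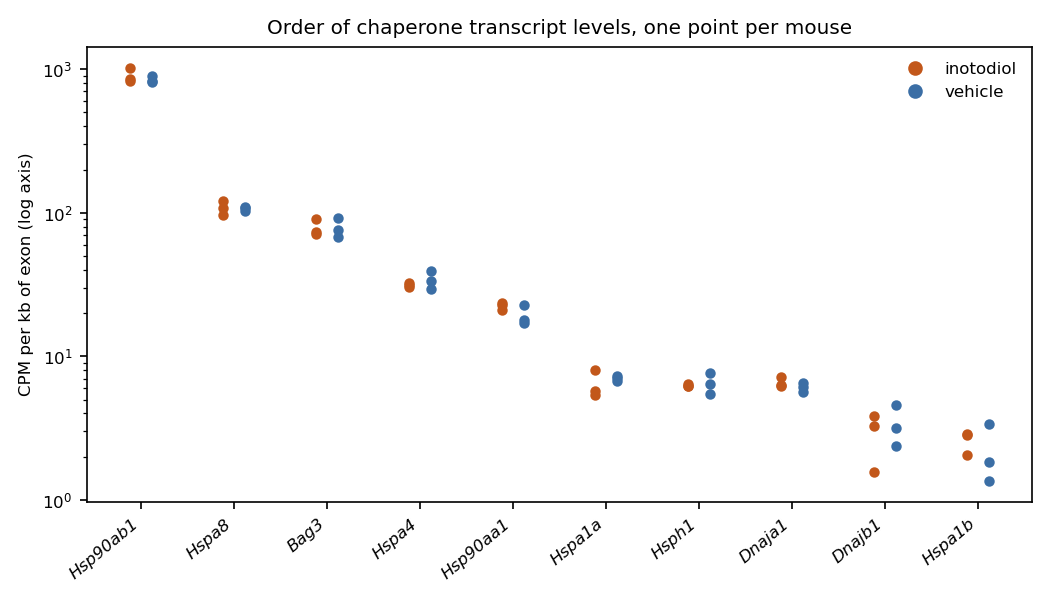
CPM per kb of annotated exon (vertical log axis) for the 10 genes in order of their mean, with 1 point per mouse, inotodiol left of vehicle within each gene. The levels span from 877 for Hsp90ab1 to 2.39 for Hspa1b, and the ranges of Hspa1a, Hsph1 and Dnaja1 overlap on this scale, whereas in CPM Hspa1a (19.9) lies below Hsph1 (46.5) and Dnaja1 (54.7).

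Within the HSP90, HSP70 and HSP110 families the constitutive form had the higher CPM per kb in every mouse. On the CPM per kb scale Hsp90ab1 exceeded Hsp90aa1 by 45.1-, 35.4- and 40.6-fold in inotodiol mice and by 48.4-, 39.5- and 46.0-fold in vehicle mice. The part of the stretches that Hsp90aa1 shares with other gene models in this ratio was not tested. Hspa8 exceeded the sum of Hspa1a and Hspa1b by 12.7-, 13.0- and 10.9-fold in inotodiol mice and by 12.9-, 10.7- and 11.2-fold in vehicle mice. Here too stretches are shared with other genes, 39.4% of them in Hspa8, 66.3% in Hspa1a and 62.3% in Hspa1b. Their part in this ratio was not tested. Hspa4 exceeded its inducible relative Hsph1 by 4.95-, 5.16- and 4.92-fold in inotodiol mice and by 5.19-, 5.16- and 5.38-fold in vehicle mice, the steadiest of these ratios. Of the J-domain genes, Dnaja1 exceeded Dnajb1 by 1.62-, 2.21- and 4.03-fold in inotodiol mice and by 1.78-, 2.61- and 1.42-fold in vehicle mice. Each ratio overlapped between the groups, and the size of each depends on the division by length. Together the 10 genes took 4122, 3505 and 3707 CPM in inotodiol mice and 3522, 3822 and 3481 CPM in vehicle mice, of which Hsp90ab1 made up 69.4% to 74.5% and 69.8% to 71.1%.

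The 10 genes had no common profile over the 6 mice. In vehicle 2, 8 of the 10 stood above their own mean over the 6 libraries, against 5 in inotodiol 1, 3 in inotodiol 2, 5 in inotodiol 3, 5 in vehicle 1 and 3 in vehicle 3. Pearson correlations of each gene's log2 CPM with the mean profile of the other 9 over the 6 samples, which share their libraries, ran from -0.79 for Dnajb1 to 0.75 for Hspa1b. Of the 4624 other genes that averaged 20 CPM or more, those closest to the mean profile of the 10 over these 6 samples were Cd99l2 (r = 0.98), Ganc (r = 0.96), Ube3b (r = 0.96), Snrpg (r = 0.96) and Slc47a1 (r = 0.95). Cd99l2 encodes a membrane protein related to CD99, Ganc a neutral alpha-glucosidase, Ube3b a ubiquitin ligase, Snrpg a core protein of spliceosomal particles and Slc47a1 an organic cation exporter. They were picked for this likeness, so r describes the choice. None of these 5 genes is a chaperone, and their log2 fold changes lay between 0.017 and 0.27.

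The wider chaperone network was listed by name in 8 groups, which share some genes. Of its 100 genes, each counted once, 97 were tested and 0 were called in edgeR. At an unadjusted p under 0.05 there were 5 (2 higher, 3 lower with inotodiol), which is 5.15% of them against 4.87% of all genes, and in 9 the groups did not overlap, which is 9.28% against 10.4%. Log2 fold changes above 0 were found in 60 of the 97 (61.9%, against 49.9% of all genes tested), and the median was 0.038, against -0.00073. These differences were not tested, and the genes share the same 6 libraries.

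No difference was detected in the heat shock factors. Hsf1, which drives the response, had 19.6, 30.4 and 37.5 CPM in inotodiol mice and 33.5, 24.9 and 32.7 CPM in vehicle mice, a log2 fold change of -0.058 ± 0.23 (95% interval -0.56 to 0.44). Inotodiol mice held both its lowest and its highest value. Hsf2, a related factor, stood at 0.038 ± 0.17, and the median of the 7 genes tested in this list was 0.0098. Among 15 other genes known to respond to HSF1, 0 were called and 1 was under 0.05 unadjusted (6.67%, against 4.87% of all genes). Of the 15, 8 were above 0 (53.3%, against 49.9% of all genes), with a median of 0.037. The gene under 0.05 was Serpinh1, the collagen chaperone HSP47 of the endoplasmic reticulum. It had 12.4, 13.5 and 8.20 CPM in inotodiol mice and 14.9, 19.2 and 19.1 CPM in vehicle mice. Its log2 fold change was -0.64 ± 0.26 (unadjusted p 0.026 and adjusted p 0.96 in edgeR). The 8 fibroblast and matrix markers, all with log2 fold changes below 0, took 930 to 1197 unscaled CPM in inotodiol and 1084 to 2077 in vehicle libraries. Of these 8, 0 were called and 3 were under 0.05 unadjusted in edgeR (37.5%, against 4.87% of all genes). Their part in Serpinh1 was not tested. Cryab, the abundant small heat shock protein of muscle, stood at 0.19 ± 0.14.

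Among 20 other J-domain genes, 0 were called, 3 were under 0.05 unadjusted (2 higher, 1 lower) and 14 had log2 fold changes above 0, with a median of 0.096. These are 15% and 70% of the list, against 4.87% and 49.9% of all genes tested, and with 20 genes the difference was not tested. Dnajb12, a J-domain protein of the endoplasmic reticulum membrane, had 15.2, 14.5 and 19.5 CPM in inotodiol mice and 9.06, 8.85 and 11.1 CPM in vehicle mice. All 3 inotodiol values lay above all 3 vehicle values. Its log2 fold change was 0.76 ± 0.25 (95% interval 0.23 to 1.29), with an unadjusted p of 0.0085 and an adjusted p of 0.89 in edgeR. Dnajb9, a partner of the endoplasmic HSP70 BiP, was at -0.56 ± 0.24 and Dnajc21, which serves ribosome assembly, at 0.37 ± 0.16, both with an adjusted p of 0.96 in edgeR. The other 10 genes of the HSP70 and HSP110 family had 0 called, 0 under 0.05 unadjusted and a median of 0.040, with Hspa14 at -0.40 ± 0.33 and Hyou1 at 0.13 ± 0.23.

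The 25 other HSP90 paralogs and co-chaperones had 0 called and 1 under 0.05 unadjusted (4%, against 4.87% of all genes). Of the 25, 13 were above 0 and 12 below, with a median of 0.017. Ppid, the cyclophilin that docks on HSP90, had 19.1, 20.0 and 20.9 CPM in inotodiol mice and 32.1, 24.7 and 24.9 CPM in vehicle mice. The groups did not overlap, and the log2 fold change was -0.45 ± 0.19 (unadjusted p 0.038 and adjusted p 0.96 in edgeR). Stub1, the ubiquitin ligase CHIP that marks chaperone clients for destruction, stood at 0.27 ± 0.15, Cdc37, which loads kinases onto HSP90, at 0.24 ± 0.15 and Unc45b, the myosin chaperone of striated muscle, at 0.18 ± 0.13. Of the 7 partners of Bag3 in chaperone-assisted autophagy 0 were called and 4 were above 0, with a median of 0.074. Among them Synpo2 stood at 0.36 ± 0.23 and the small heat shock protein gene Hspb6 at 0.22 ± 0.13. The 3 partners below 0 went no lower than -0.032. The 9 other exchange factors (median 0.077, with Bag1 at 0.14 ± 0.14 and Bag4 at 0.19 ± 0.30) and the 14 genes of the TRiC chaperonin and prefoldin (median 0.073, with Pfdn4 at 0.53 ± 0.30 and Cct2 at -0.17 ± 0.14) had 0 called and 0 under 0.05 unadjusted.

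**Figure D5:**
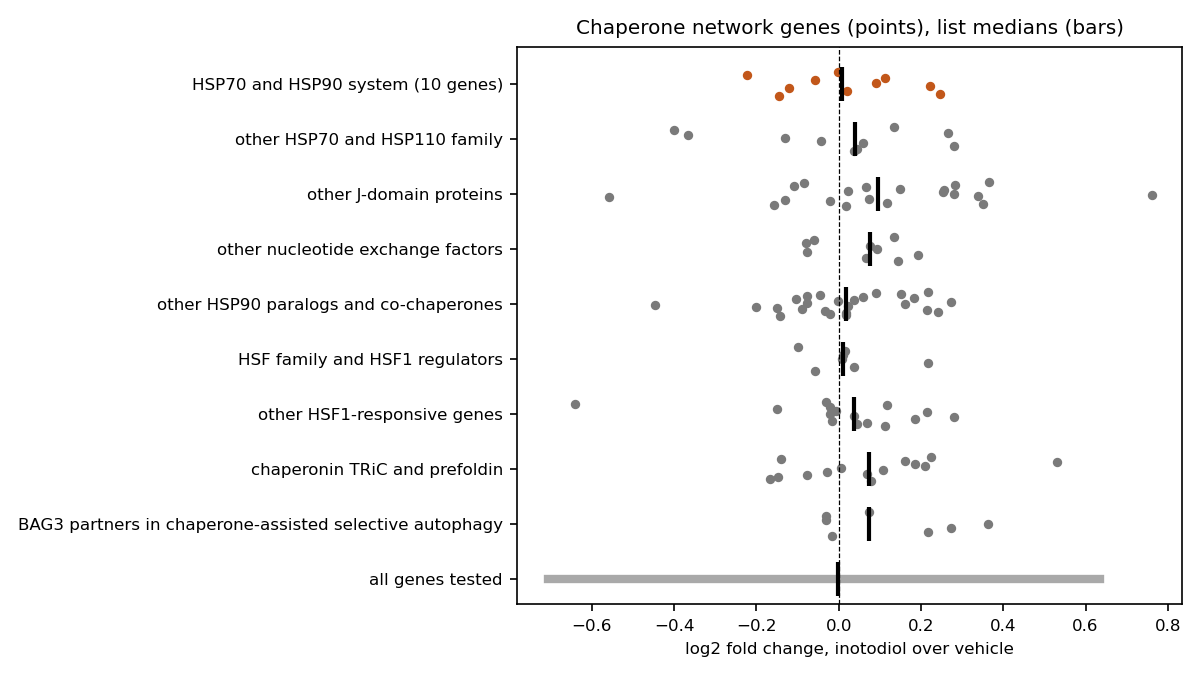
Log2 fold change of inotodiol over vehicle (horizontal axis) for the 10 chaperone genes and 8 lists of the wider network, with 1 point per gene tested and a black bar at each median; the grey band in the last row spans the 5th to 95th percentile of all genes tested, -0.71 to 0.64. The list medians lie between 0.0094 and 0.096, and of the points only Dnajb12 (0.76) lies beyond the band.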

How the data were processed

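Total RNA of gastrocnemius muscle was made into libraries with a Lexogen Quant-Seq kit, per the labels' protocols. The deposited values are raw read counts per gene symbol, 1 table per mouse. The submitters' processing notes name Bowtie2, bedtools and mm10. Versions, settings, annotation, strand and the rule for reads with several matches: not given in the sources used here. Of 23282 rows, 44 repeated a symbol and were kept as rows of their own.

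Counts were filtered with filterByExpr (minimum count 10, minimum total 15), which left 11700 genes, TMM-scaled and passed to edgeR 4.0.16 in R 4.3.3 (quasi-likelihood, two-sided, group as the only term, Benjamini-Hochberg adjustment over all genes, threshold 0.05). Standard errors came from the fold change and its F statistic, and 95% intervals from the t distribution at the moderated degrees of freedom. The test was tried on counts simulated from its own fitted dispersions, which cannot check that fit on these data. Library totals were 8961893 to 9953764 counts, and binomial intervals cover counting error only. The alternatives tried were scaling by RLE, by upper quartile or by library totals alone, other filters, DESeq2 1.42.0, limma-voom 3.58.1, edgeR's robust option, a replicate block, Hspa1a and Hspa1b summed, and each library left out.

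The members and lists were chosen with earlier results of these data known. Named genes were the 10 members, up to 4 of each list by smallest p, and the 5 genes most like the members' mean profile with a mean of at least 20 CPM. Shared 50-base stretches were counted against all GENCODE M21 transcripts of other genes on both strands. Coordinates are GRCm38, the assembly that mm10 names.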

Additional observations from a re-analysis of the deposited data

How the results depend on the processing

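In edgeR 0 genes were called over all genes tested, against 95 with no filter on low counts, 1 with DESeq2 and 0 to 25 with single libraries left out (25 without inotodiol replicate 3). The number of the 10 chaperone genes called was 0 in every alternative run. Of 160 recomputed fold changes of these genes, 143 kept their sign and 17 changed it, at most 0.14 from 0, and the smallest adjusted p was 0.84. With library totals the median of all genes moved from -0.00073 to -0.12 and that of the 10 genes to -0.100, and Hspa8 stood at -0.091, Hsp90ab1 at -0.028 and Dnaja1 at -0.0076. Bag3 was at 0.0013 with no filter, 0.0033 with limma-voom and 0.0014 with the replicate block, and Hspa1b at -0.048 when summed with Hspa1a. With single libraries left out Hsp90ab1 ran from -0.0073 to 0.15, Bag3 from -0.12 to 0.14, Hspa8 from -0.058 to 0.098, Dnajb1 from -0.49 to 0.075, Hspa1b from -0.0055 to 0.71 and Hsph1 from -0.17 to 0.067. The causes were not tested. Deviations of samples with the same replicate number correlated at -0.081, 0.11 and 0.022, and those with different numbers at -0.13 to 0.097. With 3 mice a group this cannot show whether samples with the same number share more than that number. The replicate block called 0 genes. Hspa1b, the scarcest gene, had 36 to 88 counts a library, a biological coefficient of variation of 32.4% in edgeR, and an interval that reached a fold of 2.10. The parts of depth and of spread between mice in that width were not tested.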

Other observations

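Genes that respond to handling, time of day and temperature, which can move together with heat shock genes, were read as values beside them. Of the 9 immediate early genes tested 0 were called by edgeR and 1 was under 0.05 unadjusted (11.1%, against 4.87% of all genes). Among the 9, 5 had log2 fold changes above 0, with a median of 0.088. The gene under 0.05 was Junb, a subunit of AP-1, with 21.8, 18.0 and 12.5 CPM in inotodiol mice and 22.5, 26.6 and 27.2 CPM in vehicle mice. Its log2 fold change was -0.55 ± 0.23 (adjusted p 0.96 in edgeR). Of the 12 core clock and cold-inducible genes tested 0 were called and 0 were under 0.05 unadjusted, with a median of -0.092. Cirbp, which encodes a cold-inducible RNA-binding protein, stood at -0.21 ± 0.18 and Nr1d1, which encodes the clock repressor REV-ERB alpha, at -0.25 ± 0.21.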
